A study of Homo sapiens with 4 samples.

Results

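Genes of nucleolar ribosome biogenesis and of RNA polymerase I were followed in NOMO-1 cells, a monocytic cell line from human acute myeloid leukaemia, after knock-down of the zinc finger transcription factor ZFX. The list held 56 genes, and a gene counted as found where a probe set carried its symbol and no other. Of the 56 genes 51 were found, among 18417 genes named in this way in the whole series, and all 51 passed the filter on dim genes. NOP56, PPAN, GNL3, DDX18 and EBNA1BP2 were not analysed here. By role, the genes found were 20 factors of the small ribosomal subunit, 14 of the large subunit, 7 proteins of small nucleolar ribonucleoproteins (snoRNPs), 6 subunits or factors of RNA polymerase I and 4 other nucleolar proteins.

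All cells were NOMO-1 infected with lentivirus at a multiplicity of infection of 1, and RNA was taken 48 h after selection. The control group, ZFX wild type per the labels, consisted of 1 array of cells carrying GFP lentivirus (LEN-GFP) and 1 of cells carrying a scrambled shRNA (SCR). The ZFX knock-down group consisted of 1 array of cells carrying hairpin SH1 and 1 of cells carrying hairpin SH3. No construct was repeated, and nothing in the labels says whether cultures were independent, so p-values measure only a spread between arrays that may in part be technical. With 4 arrays, their number limits the precision.

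Ribosomes are assembled in the nucleolus, where RNA polymerase I transcribes the ribosomal RNA precursor. SnoRNPs modify this precursor, with fibrillarin as the methyltransferase of the box C/D particles and dyskerin as the pseudouridine synthase of the box H/ACA particles. The precursor is then cut and folded along separate routes to the small and the large subunit. Many genes of these steps are known targets of MYC, which binds the E-box CACGTG in their promoters, and growing leukaemia cells make ribosomes at a high rate.

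ZFX itself read 10.65 (LEN-GFP), 10.66 (SCR), 10.13 (SH1) and 10.12 (SH3) in log2 intensity. Both hairpin arrays lay below both controls and close to each other, at 69.7% and 68.9% of the control level. Between the pair of hairpins and the pair of controls ZFX differed by -0.53 (SE 0.10, adjusted p = 0.797 in limma) and was not called. Of 12 myeloid marker genes 10 were on the array under 1 symbol and all 10 passed the filter, and the log2 of their summed intensity ran from 15.63 to 15.75. On SH3, 7 of the 10 lay above the control mean, with a median of 0.13, and on SH1 7 of the 10 lay below it, with a median of -0.029. The myeloid peroxidase MPO, at 13.30 on LEN-GFP, 13.36 on SCR, 13.30 on SH1 and 12.31 on SH3, was the marker called lower on SH3. The receptor gene CSF1R, at 9.04, 8.89, 9.92 and 9.17 in the same order, was the marker called higher on SH1 (adjusted p = 0.0355 in limma). CD4 and ITGAM read highest on SH3, at 11.07 and 12.39, and were not called there. Of 12 markers of other cell types 10 were on the array, and their summed log2 ran from 13.08 to 13.25. This sum was mostly PECAM1, at 12.72 on LEN-GFP, 12.75 on SCR, 12.93 on SH1 and 12.87 on SH3. It is therefore no measure of other cells in the culture. CD3D, CD3E, MS4A1, EPCAM and PPBP lay under the filter, and CD79A, KRT18, HBB, COL1A1 and PECAM1 passed it. The file marks no probe set as detected or undetected. The deposited values come from RMA, which usually sets arrays to a common distribution of probe values, so a change in all RNA per cell would not be visible. In bulk RNA, fewer cells of a type and less RNA per cell cannot be told apart.

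Most of the ribosome biogenesis genes had lower values on the hairpin arrays than on the controls, and the difference was carried mainly by SH3. The mean of the hairpin arrays lay below the mean of the controls for 46 of 51 genes, where 50.8% of all 12892 genes tested lay below. The exceptions were RRP12 (0.0045), GNL2 (0.014), RRN3 (0.0095), NOP10 (0.043) and FBL (0.098). The median difference was -0.23 on the log2 scale, or 85.1% of the control level, against -0.0029 for all genes. It was -0.035 on SH1 (97.6% of control) and -0.40 on SH3 (75.8% of control), while SCR and LEN-GFP differed by a median of 0.0014. Both hairpin arrays lay below both controls for 23 of 51 genes (background 19.0%) and above both for NOP10 and FBL. The list was chosen with earlier results of these data known, so these shares are no independent comparison with all genes.

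No single gene of the list passed the comparison of the pair of hairpins with the pair of controls. limma called 0 of 12892 genes (0%), and the smallest adjusted p was 0.797. Before adjustment 779 genes had a p under 0.05, and 3.26% of all genes were lower at that level. Of the 51 genes, DKC1, WDR12 and NOP14 were among these, which is 5.88% of the list.

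**Figure D1:**
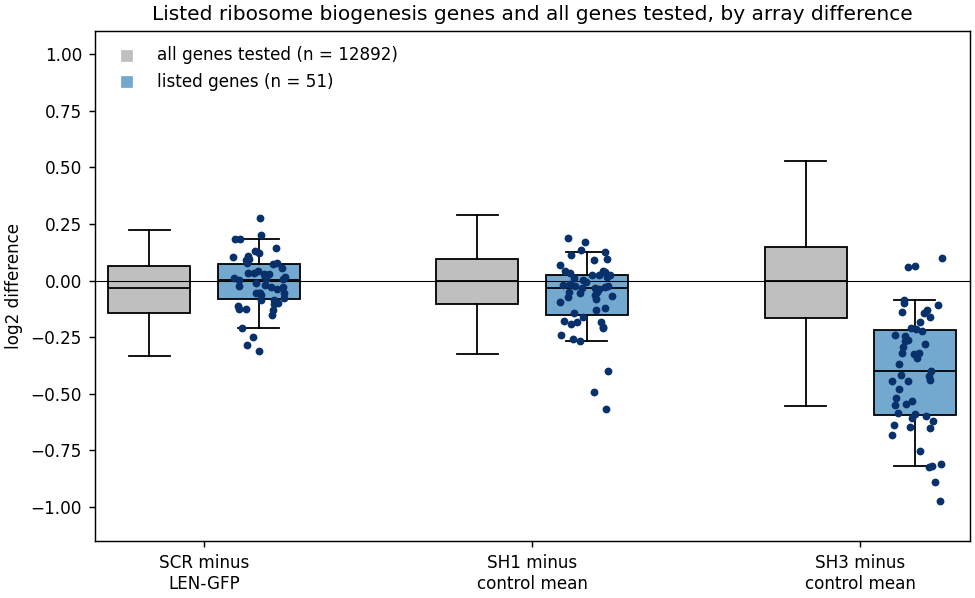
Log2 differences of SCR from LEN-GFP and of each hairpin array from the control mean, for the 51 ribosome biogenesis genes (blue boxes and points) beside all 12892 genes tested (grey boxes), with boxes at the quartiles, lines at the medians and whiskers from the 5th to the 95th percentile. The median of the 51 genes was -0.035 on SH1 and -0.40 on SH3, and that of all genes was near 0 on both.

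Each hairpin was also set alone against the control pair, in a fit where the spread comes from the control pair and the lone array is assumed to vary likewise. On SH1, 33 of 51 genes lay below the control mean (background 50.2%) and 0 were called lower (background 0.248%), with 52 genes called in all. At an unadjusted p under 0.05, 3 of the 51 (5.88%) were lower on SH1, beside 5.47% of all genes. The smallest adjusted p among them in limma was 0.108 for NIP7, followed by 0.138 for DKC1. SH1 lay below both controls for 24 genes, between them for 16 and above both for 11. The same counts were not made over all genes, so they have no background and are not read as a result.

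On SH3, 48 of 51 genes lay below the control mean (background 50.3%). These 48 also lay below both controls, a count with no background over all genes. limma called 21 of them lower and 0 higher at an adjusted p under 0.05, which is 41.2% of the list against 7.00% of all genes called lower. These calls rest on the spread between LEN-GFP and SCR, shared across genes by moderation: without moderation 0 of the 51 genes and 5 of all genes were called. SH3 lay more than 0.5 below the control mean for 19 of 51 genes (37.3%), against 6.10% of all genes. On SH1 this held for 1 gene, DKC1, against 1.60% of all genes. Pairing single arrays without a shared control gave the same order, but it used the same hairpin arrays and adds no further evidence. SH1 lay below LEN-GFP for 31 of 51 genes (52.8% of all genes), and SH3 below SCR for 48 (49.4% of all genes). Because the list was chosen with earlier results of these data known, none of its shares on SH3 is an independent comparison with all genes. This includes the share called lower.

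Genes of the small subunit act in the processome that folds and cleaves the precursor towards the RNA of the small subunit. Of 20 genes 19 had a lower hairpin mean, with a median of -0.26. In 8 genes the hairpin arrays both lay under the controls (background 19.0%). Here and in the other classes, counts called lower on SH3 stand beside the share of all genes given above. The class median was -0.043 on SH1 and -0.33 on SH3, and 9 of 20 were called lower on SH3. WDR3, a WD-repeat protein of the processome, had log2 intensities of 8.35 on LEN-GFP, 8.33 on SCR, 8.31 on SH1 and 7.37 on SH3. The SH3 array alone stood apart for this gene, since SH1 differed from the control mean by -0.037. WDR3 fell on SH3 by 0.97 (SE 0.14, adjusted p = 0.00296 in limma), to 50.9% of control.

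DDX10, a DEAD-box RNA helicase, had values of 8.87 and 8.75 on LEN-GFP and SCR, 8.61 on SH1 and 7.995 on SH3. PNO1, an RNA-binding factor of the late small-subunit precursor, had 9.68 and 9.96 on the controls, 9.56 on SH1 and 9.01 on SH3. For NOP14, a core protein of the processome, the controls read 10.05 and 9.97, SH1 9.77 and SH3 9.37. In these genes both hairpin arrays lay below both controls, with SH3 the lowest. The falls on SH3 were 0.82 for DDX10 (adjusted p = 0.00789 in limma), 0.81 for PNO1 (adjusted p = 0.0104) and 0.64 for NOP14 (adjusted p = 0.0135). On SH1 the same genes differed by -0.20, -0.26 and -0.24 and were not called. WDR43, the human counterpart of yeast Utp5, had 11.22 and 11.36 on the controls, 11.23 on SH1 and 10.64 on SH3. Its SH1 value lay between the controls, and on SH3 it fell by 0.65 (adjusted p = 0.00711 in limma).

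The other small-subunit genes called lower on SH3 were UTP15 (-0.65), the endonuclease NOB1 (-0.60), UTP14A (-0.59) and the RNA acetyltransferase NAT10 (-0.55). UTP15, NOB1 and UTP14A were at 0.012, 0.043 and 0.070 on SH1. Genes not called on SH3 included DDX52 (-0.34), RRP9 (-0.32), HEATR1 (-0.32), NOL6 (-0.26), BYSL (-0.22), UTP4 (-0.22) and UTP20 (-0.16). NOC4L (-0.13), UTP18 (-0.097), WDR75 (-0.086) and RRP12 (0.065) differed least on SH3. NOL6 was at -0.40 on SH1, the largest difference from control of the class on that array.

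**Figure D2:**
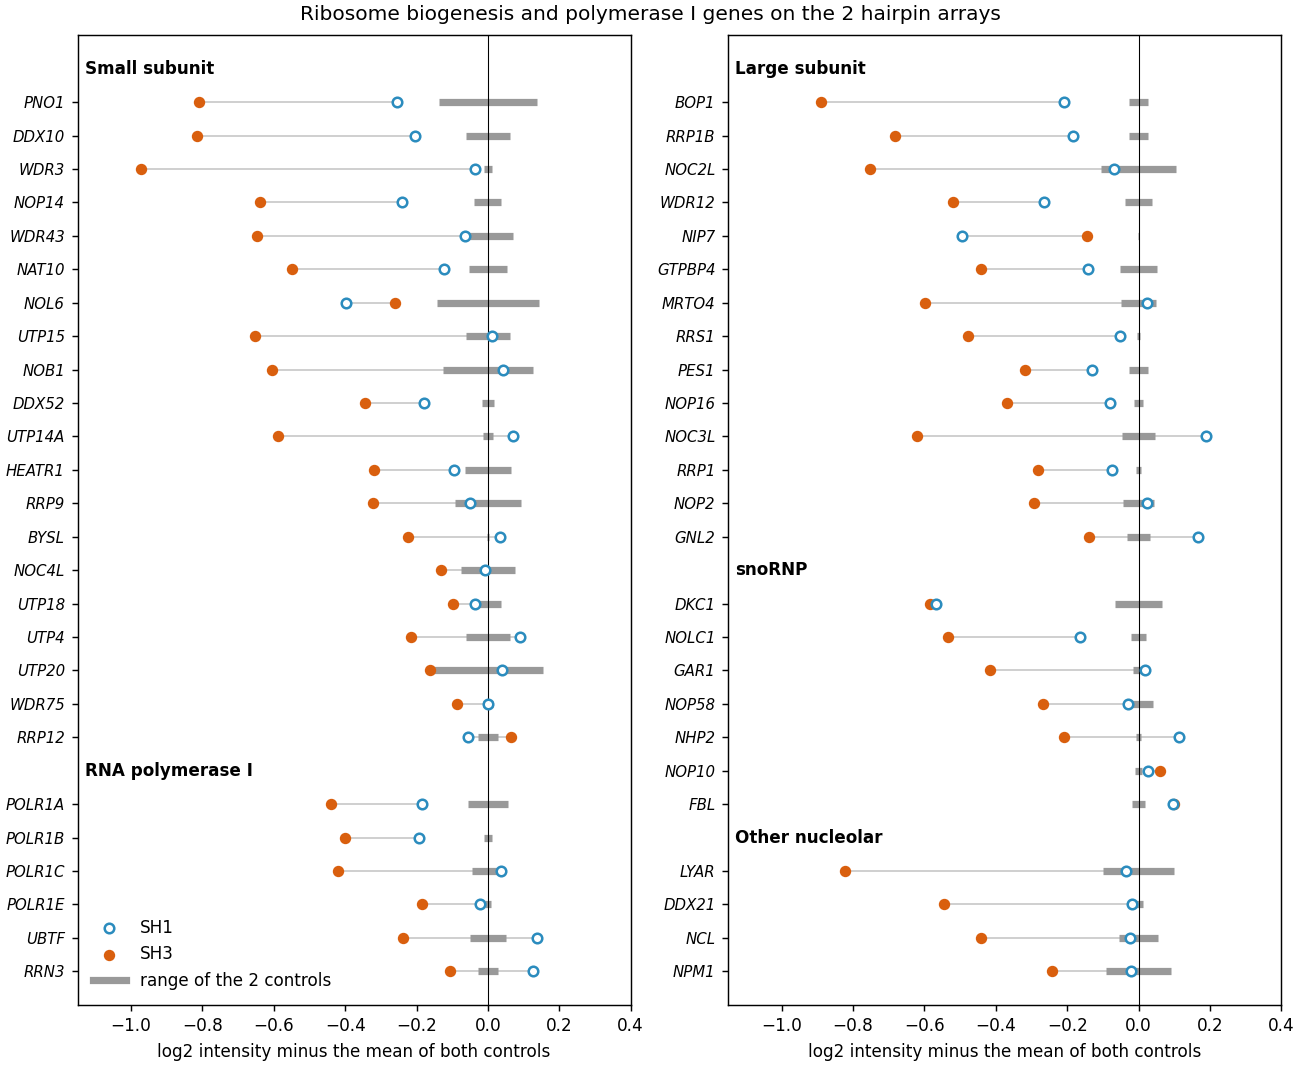
SH1 and SH3 minus the control mean, in log2 units, for each of the 51 genes, grouped by role, with open blue circles for SH1, orange points for SH3 and grey bars for the range of the controls. The points of SH3 lie left of 0 for 48 genes, and those of SH1 lie on both sides of 0 in each class but the 4 other nucleolar proteins.

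Genes of the large subunit process the precursor towards the RNAs of the large subunit. Of 14 genes 13 had a lower hairpin mean, with a median of -0.28. In 9 genes the hairpin arrays both lay under the controls (background 19.0%). The class median was -0.077 on SH1 and -0.46 on SH3, and 7 of 14 were called lower on SH3. The trimeric PeBoW complex of PES1, BOP1 and WDR12, needed for maturation of the large-subunit RNAs, was measured in full. BOP1 had log2 intensities of 9.64 on LEN-GFP, 9.58 on SCR, 9.40 on SH1 and 8.72 on SH3. WDR12 had 10.42 and 10.50 on the controls, 10.20 on SH1 and 9.94 on SH3, and PES1 had 9.16 and 9.10 on the controls, 8.998 on SH1 and 8.81 on SH3. For all 3 subunits both hairpin arrays lay below both controls.

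BOP1 fell on SH3 by 0.89 (SE 0.14, adjusted p = 0.00420 in limma) and WDR12 by 0.52 (adjusted p = 0.0239). PES1 differed on SH3 by -0.32 (adjusted p = 0.189) and was not called. A second probe set of BOP1 gave -0.59 for the mean difference, beside -0.55 for the first. On SH1 the subunits differed by -0.21 for BOP1, -0.26 for WDR12 and -0.13 for PES1, and none of them was called.

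RRP1B, a nucleolar protein related to RRP1, had 9.49 and 9.43 on the controls, 9.28 on SH1 and 8.78 on SH3, with both hairpin arrays below both controls. NOC2L, of the nucleolar complex that moves large-subunit precursors, had 10.08 and 9.87 on the controls, 9.91 on SH1 and 9.22 on SH3. Its partner NOC3L had 9.25 and 9.34 on the controls, 9.49 on SH1 and 8.68 on SH3. SH1 lay between the controls for NOC2L and above both for NOC3L, so SH3 alone was low for these genes. The falls on SH3 were 0.75 for NOC2L (adjusted p = 0.00984 in limma), 0.68 for RRP1B (adjusted p = 0.0132) and 0.62 for NOC3L (adjusted p = 0.0209). MRTO4 (-0.60), related to a protein of the ribosomal stalk, and RRS1 (-0.48), an assembly factor of the large subunit, completed the 7 calls.

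The remaining large-subunit genes were not called on SH3. They were the GTPase GTPBP4 (-0.44), NOP16 (-0.37), the RNA methyltransferase NOP2 (-0.29), RRP1 (-0.28), NIP7 (-0.15) and the GTPase GNL2 (-0.14). NIP7 had 11.23 and 11.24 on the controls, 10.74 on SH1 and 11.09 on SH3. Its lowest value was on SH1, with a difference of -0.49 there (adjusted p = 0.108 in limma), the reverse of the order in most of the list.

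The snoRNP proteins differed among themselves in direction. Of 7 genes 5 had a lower hairpin mean, with a median of -0.15. In 2 genes the hairpin arrays both lay under the controls (background 19.0%). The class median was 0.017 on SH1 and -0.27 on SH3, and 2 of 7, DKC1 and NOLC1, were called lower on SH3. DKC1, which encodes the pseudouridine synthase dyskerin, had log2 intensities of 10.02 on LEN-GFP, 10.15 on SCR, 9.52 on SH1 and 9.50 on SH3. Both hairpin arrays lay 0.50 or more below the nearest control, the widest gap among the 51 genes. The difference was -0.58 (SE 0.12, 95% interval -0.88 to -0.28, adjusted p = 0.797 in limma), or 67.1% of control. DKC1 differed by -0.57 on SH1 and -0.58 on SH3, where it was called (adjusted p = 0.0218 in limma).

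DKC1 works in the box H/ACA particle with NOP10, NHP2 and GAR1, and the partners had smaller differences on both hairpin arrays. NOP10 had 11.76 and 11.78 on the controls, 11.80 on SH1 and 11.83 on SH3, so both hairpin arrays were slightly above both controls. Its difference of 0.043 had a 95% interval of -0.17 to 0.26. GAR1 had 8.54 and 8.57 on the controls, 8.57 on SH1 and 8.14 on SH3, a difference of -0.42 on SH3 that was not called (adjusted p = 0.0926 in limma). NHP2 was at 0.11 on SH1 and -0.21 on SH3, and its second probe set at -0.11 and -0.37. Differences between DKC1 and its partners were not tested.

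Of the box C/D proteins, the methyltransferase fibrillarin (FBL) had the largest difference above 0 of all 51 genes. FBL had 11.69 and 11.65 on the controls and 11.77 on both SH1 and SH3, a difference of 0.098 (95% interval -0.12 to 0.32) that was not called. NOP58, a core protein of the same particles, had 11.55 and 11.63 on the controls, 11.56 on SH1 and 11.32 on SH3. Its SH3 value was the lowest and its SH1 value lay between the controls. NOLC1, the nucleolar chaperone of snoRNPs, had 11.02 and 11.06 on the controls, 10.87 on SH1 and 10.50 on SH3. Both hairpin arrays of NOLC1 lay below both controls, and it fell by 0.53 on SH3 (adjusted p = 0.0142 in limma).

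RNA polymerase I genes had lower values on SH3 in all 6 genes, and 0 of the 6 were called. With 6 genes, a lack of calls does not set the class apart from the others. Of 6 genes 5 had a lower hairpin mean, with a median of -0.15. POLR1A, POLR1B and POLR1E had both hairpin arrays below both controls (background 19.0%). The class median was 0.0079 on SH1 and -0.32 on SH3. POLR1A, the largest subunit, had log2 intensities of 9.75 on LEN-GFP, 9.64 on SCR, 9.51 on SH1 and 9.26 on SH3. POLR1B, the second subunit, had 9.72 and 9.70 on the controls, 9.52 on SH1 and 9.31 on SH3. Both catalytic subunits thus stepped down from controls to SH1 to SH3. On SH3 they differed by -0.44 (adjusted p = 0.0694 in limma) and -0.40 (adjusted p = 0.0841), on SH1 by -0.19 for each.

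POLR1C, shared with RNA polymerase III, had 8.73 and 8.64 on the controls, 8.72 on SH1 and 8.26 on SH3, so SH3 alone was low (-0.42). POLR1E had 8.59 and 8.61 on the controls, 8.58 on SH1 and 8.42 on SH3. The initiation factor RRN3 was at 0.13 on SH1 and -0.11 on SH3, and the upstream binding factor UBTF at 0.14 and -0.24. RRN3 has near-identical copies in the genome, and its probe set was not checked against them. Whether the polymerase class differs from the subunit classes was not tested, and on SH3 its median of -0.32 stood beside -0.33 for the small subunit.

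The 4 other nucleolar proteins had values near the controls on SH1 and lower values on SH3. Their median was -0.024 on SH1 and -0.49 on SH3, and 3 of 4 were called lower on SH3. LYAR, a cell growth regulator of the nucleolus, had 8.77 on LEN-GFP, 8.97 on SCR, 8.83 on SH1 and 8.04 on SH3. The RNA helicase DDX21 had 10.45 and 10.42 on the controls, 10.41 on SH1 and 9.89 on SH3, and nucleolin (NCL) had 11.93 and 12.04 on the controls, 11.96 on SH1 and 11.54 on SH3. In each of them SH3 was the only array clearly apart. DDX21 was the 1 gene of the 4 with both hairpin arrays below both controls (background 19.0%), with a gap of -0.0037 between SH1 and the nearest control. The falls on SH3 were 0.82 for LYAR (adjusted p = 0.00915 in limma), 0.54 for DDX21 (adjusted p = 0.0187) and 0.44 for NCL (adjusted p = 0.0189). NPM1, the nucleophosmin gene that is often mutated in myeloid leukaemia, had 12.57 and 12.76 on the controls, 12.64 on SH1 and 12.42 on SH3. Its difference of -0.24 on SH3 was not called, and its probe sets gave mean differences from -0.15 to -0.12. NPM1 has many processed pseudogenes, and cross-hybridization with them was not checked.

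**Figure D3:**
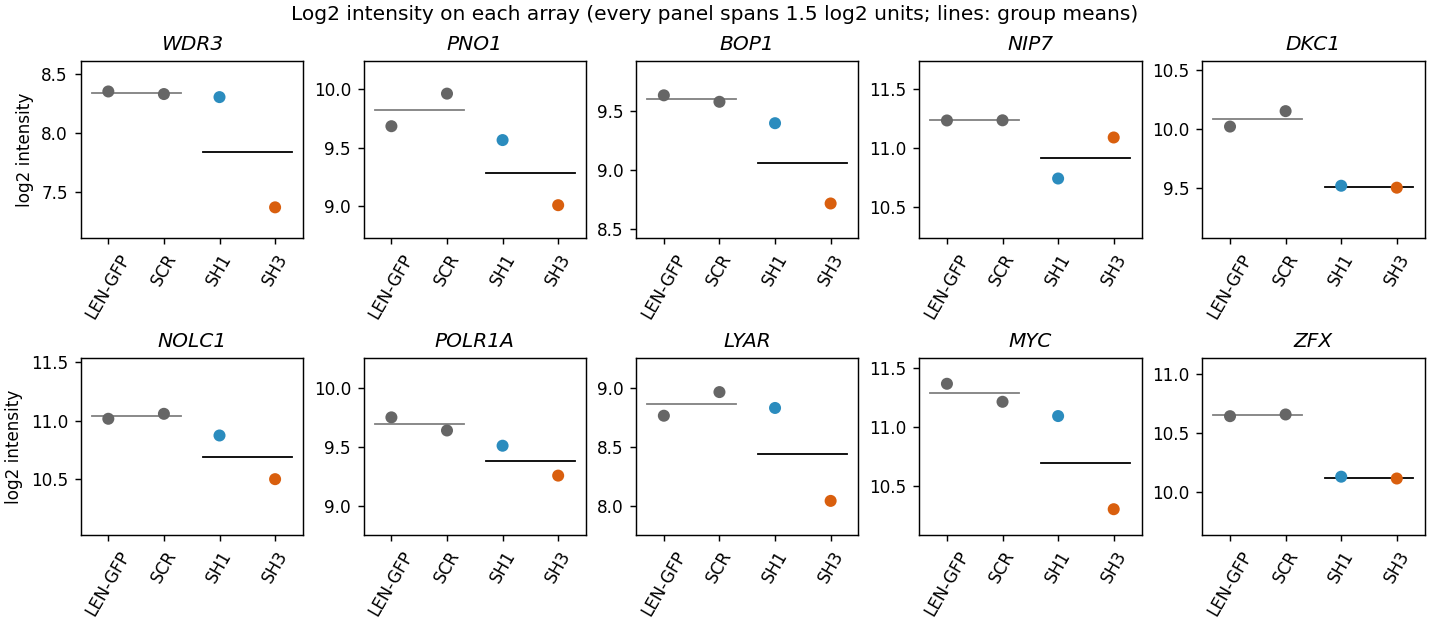
Log2 intensity on each of the 4 arrays for WDR3, PNO1, BOP1, NIP7, DKC1, NOLC1, POLR1A, LYAR, MYC and ZFX, with lines at the group means and each panel spanning the same range of log2 units. For DKC1 the SH1 and SH3 points lie together below both controls, while for WDR3 and LYAR the SH3 point alone lies low.

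The difference between the hairpins was tested directly. Over all genes tested, SH3 was below SH1 for 49.9%. SH3 was below SH1 for 46 of 51 genes, and limma called 9 of them lower on SH3 than on SH1 and 0 higher (background 4.48% lower). By role, they were small-subunit genes, large-subunit genes and LYAR. The 7 snoRNP and 6 polymerase I genes are too few for a lack of calls to set these classes apart at this background. WDR3 led with -0.94 (SE 0.16, adjusted p = 0.0101 in limma). NIP7, NOL6, RRP12, NOP10 and FBL were the 5 genes not lower on SH3 than on SH1. The count of 9 became 3 with no filter on dim genes, 2 with the arrays centred on their medians and 0 without moderation.

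MYC, the best known transcription factor of these genes, had log2 intensities of 11.37 on LEN-GFP, 11.21 on SCR, 11.09 on SH1 and 10.30 on SH3. Both hairpin arrays lay below both controls, with SH3 far lower. MYC fell on SH3 by 0.99 (SE 0.12, adjusted p = 0.00126 in limma), to 50.4% of control, and differed by -0.20 on SH1. The step from SH1 to SH3 was -0.79 (adjusted p = 0.00986 in limma). ZFX differed by -0.015 between the same arrays, with a 95% interval from -0.32 to 0.29. The part of MYC, of the myeloid markers or of ZFX in the differences of the ribosome biogenesis genes was not tested.

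Promoter sequences were set beside these values because ZFX and MYC both bind DNA near gene starts. RefSeq promoters (GRCh38.p14), from 250 bases before to 50 after the start, were at hand for 47 of the 56 genes. They were searched for CACGTG, the E-box, and for AGGCCT, the core of the published ZFX motif. Both motifs read the same on both strands and cannot overlap each other. The promoters of 3 small-subunit genes with an E-box just after the start, and of POLR1B with AGGCCT before it, are given from 170 bases before to 30 after the start, 5′ to 3′ on the gene's strand, with the motif in capitals.
PNO1: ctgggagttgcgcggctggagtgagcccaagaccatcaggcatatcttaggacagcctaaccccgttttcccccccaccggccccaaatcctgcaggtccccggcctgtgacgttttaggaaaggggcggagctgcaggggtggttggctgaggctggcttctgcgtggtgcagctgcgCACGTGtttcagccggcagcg
NOP14: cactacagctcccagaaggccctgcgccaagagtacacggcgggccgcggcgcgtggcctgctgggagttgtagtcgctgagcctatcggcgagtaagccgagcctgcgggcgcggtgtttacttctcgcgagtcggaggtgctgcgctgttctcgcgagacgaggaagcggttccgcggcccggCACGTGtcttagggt
WDR43: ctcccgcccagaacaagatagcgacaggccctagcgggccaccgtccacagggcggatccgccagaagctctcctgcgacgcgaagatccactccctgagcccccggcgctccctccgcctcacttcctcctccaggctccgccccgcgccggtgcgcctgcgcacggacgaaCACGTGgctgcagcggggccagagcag
POLR1B: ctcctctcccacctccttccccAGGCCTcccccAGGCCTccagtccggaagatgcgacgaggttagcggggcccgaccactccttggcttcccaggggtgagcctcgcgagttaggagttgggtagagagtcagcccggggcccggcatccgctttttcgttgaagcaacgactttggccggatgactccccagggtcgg

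PNO1 lies on the plus strand at chr2:68157718-68157917, NOP14 on the minus strand at chr4:2963377-2963576, WDR43 on the plus strand at chr2:28894497-28894696 and POLR1B on the plus strand at chr2:112541866-112542065. Counted from the first transcribed base as base 1, the E-box begins at base 10 in PNO1, base 16 in NOP14 and base 4 in WDR43. In POLR1B the pair of AGGCCT copies begins 148 and 137 bases before the start. These are matches of letters, and binding was not measured.

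The E-box was found in 23 of 47 genes (48.9%), against 12.4% of all genes tested with a promoter and 8.77% of all genes of the promoter table. Counted per promoter, 42.1% of those of the list held it, against 9.24% of those of all genes tested and 7.26% of all promoters of the same length. By role it was in 11 of 18 small-subunit genes, 7 of 14 large-subunit genes, 3 of 6 snoRNP genes, 0 of 5 polymerase I genes and 2 of 4 others. The AGGCCT core was in 7 of 47 genes (14.9%), close to the 14.5% of all genes tested, and 5 of the 7 were small-subunit genes. Because the list was chosen with earlier results of these data known, these shares are no independent comparison with all genes.

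Values of genes with and without each motif were set side by side, and the differences between them were not tested. The 21 tested genes with an E-box had a median of -0.32 on SH3, and the 22 without it had -0.41. For the mean of both hairpins the medians were -0.22 with and -0.26 without. The 6 tested genes with AGGCCT had a median of -0.28, and the 37 without it -0.22. On SH3 the medians were -0.33 with AGGCCT and -0.42 without it. Over all genes tested, those with an E-box had a median of -0.0060 on SH3 and those without it -0.0010.

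Other genes of the same steps, not on the list of 56, more often had a lower hairpin mean than a higher one. Their shares called lower on SH3 stand beside the 7.00% of all genes, and a share near that is not read as a result. Of 38 other small-subunit genes 31 had a lower hairpin mean (median -0.12, and -0.20 on SH3), and 4 (10.5%) were called lower on SH3. LTV1, an export factor of the small subunit, led them with -0.21 on SH1 and -1.10 on SH3 (adjusted p = 0.00211 in limma). KRR1, of the same particle, was at -0.27 and -0.66, and AATF, of the small-subunit processome, at -0.31 and -0.34. Of 43 other large-subunit genes 37 had a lower mean (median -0.12, and -0.21 on SH3), and 5 (11.6%) were called on SH3. URB1 was at -0.35 on SH1 and -0.77 on SH3 and the helicase DDX56 at -0.12 and -0.75, while the ATPase NVL was at 0.29 and 0.11.

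Of 19 other snoRNP genes 16 had a lower mean (median -0.092, and -0.16 on SH3), and 3 (15.8%) were called on SH3. They were the assembly factors NUFIP1 (-0.41 on SH1 and -0.87 on SH3), NAF1 (-0.27 and -0.52) and RUVBL1 (-0.22 and -0.51). Of 18 other polymerase I genes 13 had a lower mean (median -0.13, and -0.18 on SH3), and 2 (11.1%) were called on SH3. POLR1F, a stalk subunit of RNA polymerase I, was the furthest of these, with 9.35 on LEN-GFP, 9.32 on SCR, 8.94 on SH1 and 8.46 on SH3. Both hairpin arrays lay below both controls, and POLR1F fell by 0.88 on SH3 (adjusted p = 0.00486 in limma). POLR1H was at -0.45 on SH1 and -0.27 on SH3, and the termination factor TTF1 at 0.12 and 0.23. The listed genes had been chosen with earlier results of these data in view. Their larger share of calls is therefore no independent comparison with these lists or with all genes.

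Neighbouring systems were described in the same way, with no test between lists. Of 20 RNA polymerase III genes 11 had a lower hairpin mean, with a median of -0.019, and 0 were called lower on SH3. Cytosolic ribosomal proteins, the finished parts that these factors assemble, had a higher hairpin mean for 40 of 58 genes tested of 79 listed, with a median of 0.036. The controls differed by about as much for these genes, with SCR below LEN-GFP for 37 of the 58 and a median of -0.038. RPL10 alone was called lower on SH3 (-0.27, adjusted p = 0.0406 in limma), and RPL23 was at 0.17 on SH1 and 0.27 on SH3. RPL17, named after its values were seen, was at -0.82 on SH1 and 0.27 on SH3, and SH3 lay 1.09 above SH1 (adjusted p = 0.00576 in limma). Of 8 genes of the response to nucleolar stress, in which free ribosomal proteins bind MDM2, 5 had a lower mean, and the list median was -0.023, at -0.13 on SH1 and 0.026 on SH3. SESN2, also named after its values were seen, was at -0.40 on SH1 and 0.61 on SH3 and was not called on either. MDM2 was at -0.22 on SH1 and fell by 0.41 on SH3 (adjusted p = 0.0213 in limma). Ribosomal protein genes have many processed pseudogenes, and cross-hybridization with them was not checked.

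**Figure D4:**
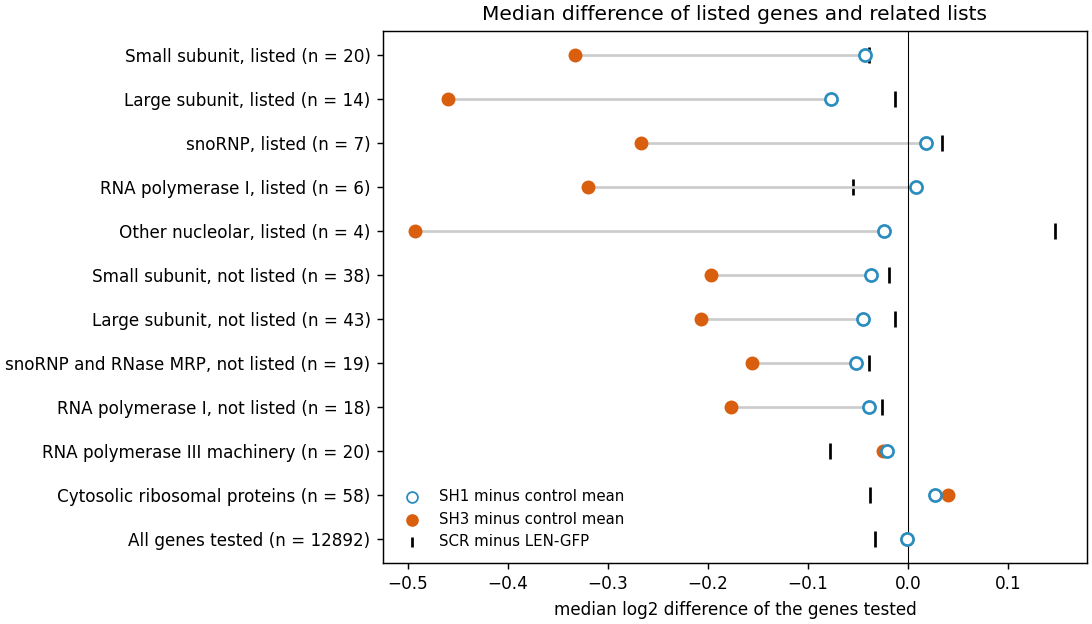
Median difference from the control mean, in log2 units, for each class of the list and for the other gene lists, on SH1 (open blue circles) and on SH3 (orange points), with black ticks for SCR minus LEN-GFP. The medians on SH3 run from -0.49 for the other nucleolar proteins of the list to 0.040 for cytosolic ribosomal proteins.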

How the data were processed

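RNA of 4 cultures, 2 with control constructs and 2 with ZFX hairpins, was hybridized to 1 array each. From 200 ng of RNA, extracted with Trizol, biotin-labelled targets were made with the Ambion WT kit, per the labels' protocols. The authors deposited 1 linear intensity per probe set and array, for 33297 probe sets, with array medians from 184.8 to 189.8. Affymetrix Expression Console 1.1 and RMA are named in the submitters' processing notes, with the step back to linear values not given in the sources used here. RMA can compress the differences of dim genes.

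Log2 was taken of the intensities, without an offset. The probe set with the highest mean stood for its gene where it carried a single symbol in the platform annotation (19460 probe sets, with 1754 carrying several symbols and 12083 none). The 30% of genes with the lowest mean (under 6.70) were left out. limma 3.58.1 in R 4.3.3 (lmFit, eBayes with trend, two-sided) compared the pairs of arrays (2 residual degrees of freedom, prior 2.95). A fit with 3 groups compared SH1 or SH3 with the controls and with each other (1 residual degree of freedom, prior 7.85). Benjamini-Hochberg adjustment was over 12892 genes, and an adjusted p under 0.05 was a call. The fits were run on simulated data with known changes planted on both hairpin arrays and noise independent between genes. This checked the size and sign of differences between the pairs. It does not bear on calls that rest on SH3 alone. Class medians and other lists are described without a test. Alternatives covered the filter, the probe set rule, the normalization, the offset, the moderation and each array left out.

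The genes and lists were chosen with earlier results of these data known. Full values were given for up to 4 genes of each class with the largest mean difference and up to 4 called in a fit. Outside the list ZFX and MYC were named, and up to 3 genes per direction of each other list, among those with both hairpin arrays beyond both controls. Cell type markers came from fixed marker lists. PES1, NIP7, NOP10 and FBL were added after their values were seen.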

Additional observations from a re-analysis of the deposited data

Results flagged for a closer look

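For 9 of the 51 genes, SH3 differed from SH1 beyond the threshold in limma's test of the difference between the hairpins. The small-subunit genes were WDR3 (-0.94, SH3 minus SH1 on the log2 scale), UTP15 (-0.66), UTP14A (-0.66), NOB1 (-0.65) and WDR43 (-0.58). The large-subunit genes were NOC3L (-0.81), NOC2L (-0.69) and BOP1 (-0.68), and LYAR (-0.79) was the other nucleolar gene. Adjusted p-values in limma ran from 0.0101 for WDR3 to 0.0473 for NOB1. Each hairpin is 1 array, so this test takes its error from LEN-GFP and SCR alone, and the hairpin, the culture and the array cannot be told apart. The background was 4.48% of all genes lower by the same test, and the calls among the 51 genes were fewer under some other settings, as given above.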

How the results depend on the processing

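Under the 8 alternatives that kept all arrays, the hairpin mean lay below the control mean for 46 of 51 genes, or 44 of 49 with the lowest 50% of genes left out, and 0 genes changed direction. Settings of the filter, the trend and the moderation leave each gene's difference as it was, so no direction could change under them. Averaging probe sets could alter only BOP1, NHP2 and NPM1. Calls on SH3 against SH1 moved from 9 to 3 with no filter, 2 with arrays centred on their medians and 0 without moderation. Calls on SH3 against the controls moved from 21 to 0 without moderation. Of all genes, SH1 calls moved from 52 to as few as 4 and as many as 145, SH3 calls from 1719 to as few as 5, and calls between the hairpins from 1095 to 688 with centred arrays and 5 without moderation. With each array left out in turn, calls among the 51 genes ran from 0 to 21, calls of all genes from 0 to 1698 (54 without SH3), and the median from -0.40 to -0.035. Genes with all kept hairpin arrays below the controls ran from 24 to 48, with no background counted over all genes. The small-subunit median ran from -0.33 to -0.043 and the polymerase I median from -0.32 to 0.0079. Leaving out SH3 moved directions most: without it 15 genes changed direction, against 2 without SH1, 3 without LEN-GFP and 2 without SCR. No paired analysis was possible because replicate numbers only name the arrays. No signal over background is given, which leaves dim genes without a detection limit.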

Other observations

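MXD1, a partner of MAX that opposes MYC at E-boxes, is named here after its values were seen. Its log2 intensity was 10.93 on LEN-GFP, 11.11 on SCR, 11.04 on SH1 and 11.64 on SH3, so the SH3 array alone was high. It rose on SH3 by 0.62 (adjusted p = 0.00913 in limma), and SH3 lay 0.60 above SH1 (adjusted p = 0.0284 in limma). MXI1, of the same family, had both hairpin arrays above both controls, with 0.28 on SH1 and 0.16 on SH3, and was not called on either. MXD1 and MXI1 were the 2 genes with a higher hairpin mean among 8 tested regulators. That list held ZFX, ZFY, MYC, MAX, MNT and the MXD family, and the other 6 tested had a lower hairpin mean.

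MAK16, an assembly factor of the large subunit, and RIOK2, a kinase of the late small-subunit precursor, are also named after their values were seen. MAK16 fell by 0.92 on SH3 (adjusted p = 0.00317 in limma) and was at -0.023 on SH1. RIOK2 fell by 0.72 on SH3 (adjusted p = 0.0120 in limma) and was at -0.050 on SH1.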
